A study of Mus musculus with 6 samples.

Results

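The genes described here encode the centromere, the kinetochore and the spindle assembly checkpoint, the parts of a dividing cell that tie chromosomes to spindle microtubules and hold back anaphase until every chromosome is attached. The set was a fixed list of 42 genes, chosen with earlier results of these data known and matched by symbol to the array annotation. All 42 were measured, each by 1 probe set, among 19505 named genes in all. RAW264.7 cells, a mouse macrophage line that keeps dividing in culture, were grown for 3 days on a modified polyetheretherketone (PEEK) surface, the polymer of some bone implants, or on pristine PEEK as the control. Each surface had 3 samples of total RNA, 1 Affymetrix array each. What the modification was is stated nowhere in the labels. Both groups were the same line in the same serum-containing medium. Since no label states that replicates came from separate cultures, the p-values reflect the spread among these particular samples, and that spread may be technical.

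As background, the histone H3 variant CENP-A marks the centromere through the whole cell cycle, and a network of constitutive proteins sits on it. In mitosis this network recruits the KNL1, MIS12 and NDC80 complexes, which bind microtubules, and an outer corona of motors and adaptors. Unattached kinetochores activate the checkpoint kinases and the Mad and Bub proteins, which restrain the anaphase-promoting complex. Many of these genes are transcribed most strongly in G2 and mitosis, whereas others are made through the whole cycle.

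The values are log2 signals, so a difference of 1 is a 2-fold difference. Array medians over all genes lay between 4.98 and 5.10. A background of 3.72 was set at the 95th percentile of the mean signals of 1410 genes for odorant and pheromone receptors, and 41 of the 42 genes lay above it on all 6 arrays. Of the macrophage markers, 8 of 8 measured genes were above background on every array, with a mean log2 level of 10.53 to 10.58 on modified and 10.57 to 10.61 on pristine PEEK. By limma 1 of the 8 was higher on modified PEEK (Adgre1, log2 change 0.54, adjusted p = 0.00669) and 1 lower (Itgam, -0.59, adjusted p = 0.00544). No fibroblast (5 measured) or T and B cell marker (3 measured) passed the test. Of these, 2 fibroblast and 0 T and B cell markers were above background on all arrays. Of 6 osteoclast markers, 4 were above background on all arrays. On modified PEEK 3 of the 6 were lower, against 5.15% of all genes, and 0 higher, against 5.24%. These 3 were Acp5 (-1.41), Dcstamp (-0.84) and Mmp9 (-0.99, with its modified PEEK mean below background). The proliferation markers Mki67 (1.16 ± 0.10 SE), Top2a (1.29 ± 0.10 SE) and Cdk1 (1.12 ± 0.11 SE) were higher on modified PEEK on the log2 scale by limma, with adjusted p = 0.00035 for Mki67, 0.000228 for Top2a and 0.000515 for Cdk1. Pcna changed by 0.28 and did not pass (adjusted p = 0.101). In a bulk RNA sample a larger share of dividing cells and more of these RNAs per dividing cell cannot be told apart.

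Most of the kinetochore genes were higher on modified PEEK. By limma, 35 of the 42 (83.3%) rose at an adjusted p under 0.05, against 5.24% of all genes tested, and 0 fell, against 5.15% of all genes (10.4% in either direction). At an unadjusted p under 0.05, 39 changed upward, against 11.3% of all genes, and 1 downward, against 11.4%. The rises ran from 0.46 to 1.49 on the log2 scale, or 1.38-fold to 2.81-fold. The median change of the 42 genes was 0.85, beside 0.0088 for all genes. A rise of at least 2-fold that passed was found for 16 of the 42, against 0.995% of all genes. In the order of all 19505 changes, 9 of the 42 stood among the first 100 rises.

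The surfaces did not overlap for 40 of the 42 genes. In 38 of these every modified PEEK array lay above every pristine one, against 14.3% of all genes, and in 2 every modified PEEK array lay below, against 14.5% of all genes. The heat map of signals shows that the separation is between surfaces, with smaller differences among the arrays of a surface. Within modified PEEK, replicate 2 was the lowest array for 27 of the 42 genes and replicate 3 the highest for 24. Modified PEEK replicate 2 also had the lowest poly-A spike signal, 6.55 against 6.77 to 6.81 on the other modified PEEK arrays. On pristine PEEK the spikes averaged 6.78 to 7.05. Scaled to these spikes, 38 genes rose, against 8.07% of all genes. This scaling shifts the change of every gene by the same amount. The median change of the 42 therefore stayed 0.84 above that of all genes by construction. Without modified PEEK replicate 2 the median change was 0.94 and 36 genes rose.

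**Figure D1:**
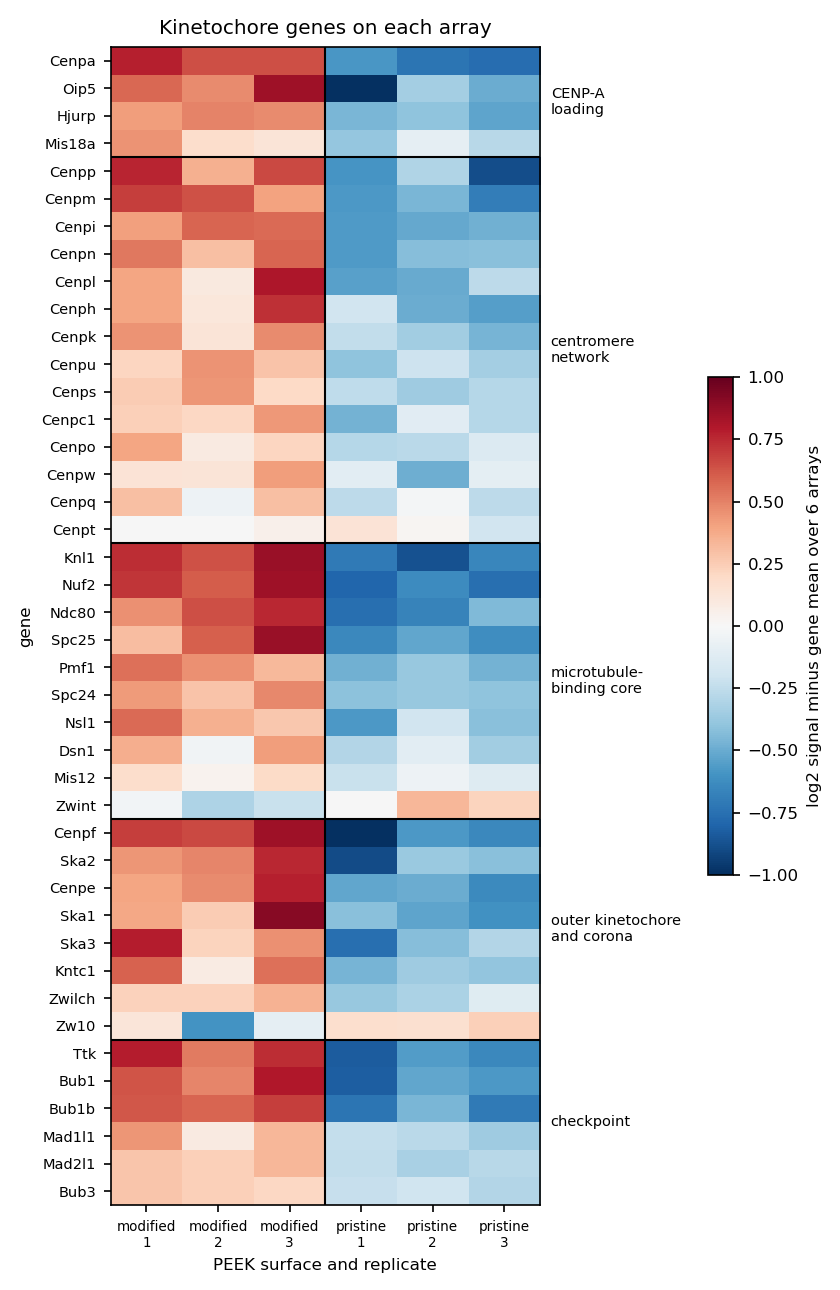
Heat map of the log2 signal of each of the 42 genes (rows, grouped by role) on each array (columns, modified PEEK on the left and pristine PEEK on the right), minus the gene's mean over the 6 arrays. Nearly all genes are red on the 3 modified PEEK arrays and blue on the 3 pristine ones, while Zwint and Zw10 run the other way and Cenpt shows little difference.

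Of the 35 genes that rose, 26 kept their call in all 16 alternative settings. Ska1 kept it in the 15 settings that tested it, and 8 genes lost it in at least 1 fit that left out an array, which has fewer samples. The changes of these 8 genes stayed positive in all such fits, at 0.38 to 1.04 on the log2 scale. Leaving out 1 array gave between 29 and 36 genes higher, against 3.05% to 4.63% of all genes in the same fits.

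Promoters of these genes often carry short elements of cell cycle transcription. The cell cycle homology region, with the letters TTTGAA or TTCGAA, is a site known for the DREAM and MuvB complexes, and the letters CCAAT are the site of the factor NF-Y. The 250 bases before the gene start were searched on both strands in RefSeq promoter windows (GRCm38.p6), which were matched for 38 of the 42 genes; Nsl1, Spc24, Ska1 and Zwilch had no entry. TTTGAA or TTCGAA stood in 11 of 38 (28.9%), against 17.7% of 15691 measured genes. Over all 27025 genes with a window the share was 19.6%, and over the 32851 single windows 17.1%. TTTGAA alone stood in 8 of the 38 (21.1%), against 16.1% of measured genes, and TTCGAA in 3 (7.89%), against 1.87%. CCAAT stood in 21 of 38 (55.3%), against 39.2% of measured genes, 37.5% of all genes with a window and 33.8% of single windows. Within the last 100 bases before the start, TTTGAA or TTCGAA was found for 6 of 38 genes (15.8%), against 5.83% of measured genes. CCAAT overlapped TTTGAA by its letters at 2 places among these genes, in Cenpw and Kntc1.

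The counts were also split by whether a gene passed as higher, with no test of the difference. The 7 genes that did not pass changed by -0.38 to 0.50, and only Zwint and Zw10 were negative. They are therefore not a group without a rise. Of the genes that passed, 9 of 31 with a window (29.0%) held TTTGAA or TTCGAA, and of those that did not pass, 2 of 7 (28.6%) did. TTTGAA alone stood in 6 of 31 genes that passed (19.4%) and in 2 of 7 that did not pass (28.6%), and TTCGAA in 3 of 31 (9.68%) and in 0 of 7. CCAAT stood in 17 of 31 genes that passed (54.8%) and in 4 of 7 that did not pass (57.1%). These are counts of letters in windows, not of occupied sites.

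**Figure D2:**
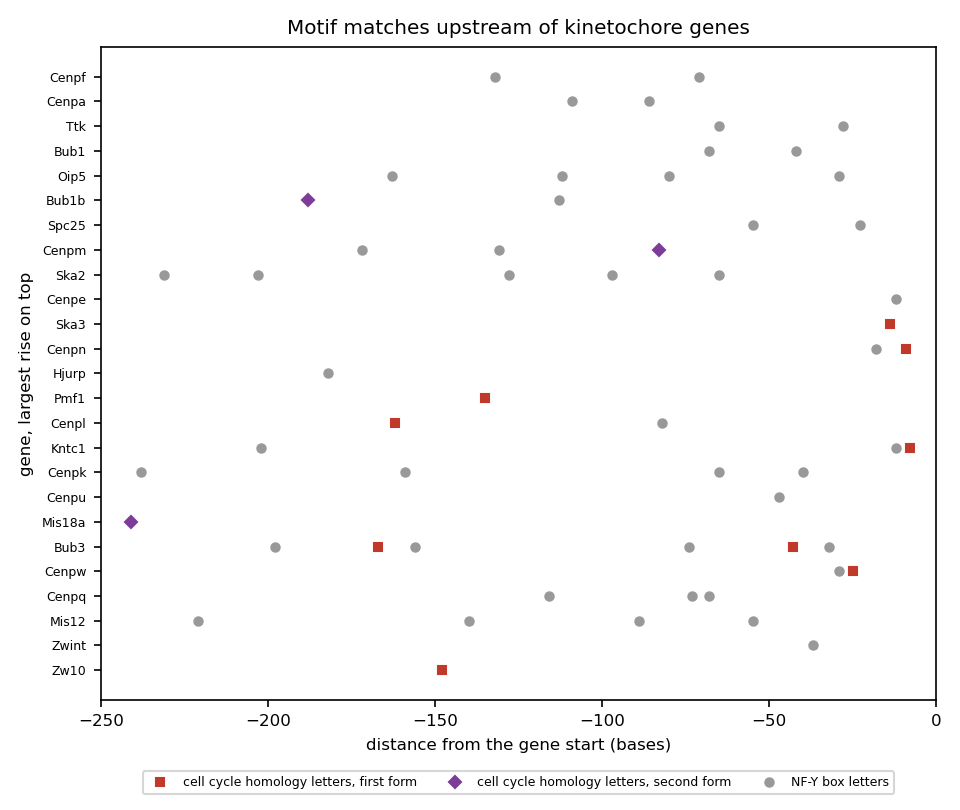
Distance in bases from the gene start of each match to the cell cycle homology letters (squares and diamonds) or the NF-Y box letters (circles) for genes with at least 1 match, with the largest rise on top. Matches to the NF-Y box letters run from Cenpf with a rise of 1.47 to Zwint with a change of -0.37. Those to the cell cycle homology letters run from Bub1b with a rise of 1.26 to Zw10 with a change of -0.38. Genes without a match, among them Knl1 and Nuf2, are not shown. A gene with several windows shows the matches of each, so a site in overlapping windows appears more than once.

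The 250 bases before the start are printed here for the 4 genes with the largest rise that hold TTTGAA or TTCGAA, since these show where the letters lie. Capitals mark these letters and CCAAT on either strand, so that some appear as their reverse complement. Bub1b lies on the plus strand at chr2:118597961-118598210, Cenpm on the minus strand at chr15:82244337-82244586, Ska3 on the minus strand at chr14:57826164-57826413 and Cenpn on the plus strand at chr8:116921490-116921739, all in GRCm38.p6.
Bub1b: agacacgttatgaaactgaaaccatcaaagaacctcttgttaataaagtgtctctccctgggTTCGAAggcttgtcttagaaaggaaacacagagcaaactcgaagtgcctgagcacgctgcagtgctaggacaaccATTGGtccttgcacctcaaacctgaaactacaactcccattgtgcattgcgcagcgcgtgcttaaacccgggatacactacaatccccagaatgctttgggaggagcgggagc
Cenpm: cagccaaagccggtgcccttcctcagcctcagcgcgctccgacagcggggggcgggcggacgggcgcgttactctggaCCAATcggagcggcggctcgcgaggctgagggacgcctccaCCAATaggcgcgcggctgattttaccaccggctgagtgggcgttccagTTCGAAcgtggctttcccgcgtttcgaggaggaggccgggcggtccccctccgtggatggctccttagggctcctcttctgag
Ska3: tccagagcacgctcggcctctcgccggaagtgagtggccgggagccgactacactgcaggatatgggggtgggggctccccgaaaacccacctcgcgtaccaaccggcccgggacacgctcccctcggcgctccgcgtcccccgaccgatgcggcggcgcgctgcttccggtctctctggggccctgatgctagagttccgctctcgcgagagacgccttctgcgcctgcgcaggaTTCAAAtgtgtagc
Cenpn: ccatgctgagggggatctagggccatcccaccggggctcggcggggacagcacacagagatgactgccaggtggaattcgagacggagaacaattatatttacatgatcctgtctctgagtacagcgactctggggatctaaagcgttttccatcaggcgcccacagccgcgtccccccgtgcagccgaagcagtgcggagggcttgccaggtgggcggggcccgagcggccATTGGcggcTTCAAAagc

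The same stretch is shown for Mis12 (plus strand, chr11:71019361-71019610) and Zwint (plus strand, chr10:72654596-72654845), which did not pass. Mis12 holds CCAAT at 4 places and Zwint at 1, and neither holds TTTGAA or TTCGAA in this window. The 4 genes above were picked for holding these letters, so the printed windows are no comparison of rising genes with others. Knl1, Cenpf, Nuf2, Cenpa, Ttk, Bub1 and Oip5 rose by more than Bub1b and held neither form. Zw10 and Cenpw, which did not pass, held TTTGAA.
Mis12: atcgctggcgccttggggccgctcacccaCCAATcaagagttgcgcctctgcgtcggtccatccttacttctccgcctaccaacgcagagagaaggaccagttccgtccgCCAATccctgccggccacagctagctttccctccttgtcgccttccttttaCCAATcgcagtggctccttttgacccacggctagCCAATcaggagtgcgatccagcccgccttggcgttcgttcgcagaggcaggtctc
Zwint: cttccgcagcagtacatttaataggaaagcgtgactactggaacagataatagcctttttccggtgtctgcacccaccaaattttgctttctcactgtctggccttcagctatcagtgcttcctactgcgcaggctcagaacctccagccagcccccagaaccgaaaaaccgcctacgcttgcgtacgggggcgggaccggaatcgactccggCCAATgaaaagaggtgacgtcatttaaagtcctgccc

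Genes of centromeric chromatin and CENP-A loading all rose (4 of 4, median change 1.10 on the log2 scale). Cenpa, which encodes the centromeric histone itself, had log2 signals of 9.43, 9.29 and 9.30 on modified PEEK, against 8.07, 7.92 and 7.89 on pristine PEEK. The lowest modified PEEK array was more than 1 log2 unit above the highest pristine one. The change was 1.38 ± 0.10 (SE), a 2.60-fold difference (limma, adjusted p = 0.000218). Oip5, a subunit of the Mis18 complex that primes centromeres for new CENP-A, had 6.73, 6.63 and 7.0 on modified PEEK, against 5.08, 5.81 and 5.66 on pristine PEEK (limma, 2.41-fold, adjusted p = 0.00477). Its pristine arrays spread more widely than its modified ones, without overlap. Hjurp, the CENP-A chaperone, had 9.09, 9.17 and 9.15 on modified PEEK, against 8.22, 8.27 and 8.15 on pristine PEEK (limma, 1.90-fold, adjusted p = 0.000561). Mis18a, the partner of Oip5, rose by 0.50 ± 0.13 (SE; limma, adjusted p = 0.0407). This call was lost without any 1 of the 6 arrays, with adjusted p from 0.0515 to 0.139 and changes of 0.40 to 0.58.

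The constitutive centromere network rose in 11 of 14 cases, with a median change of 0.67 on the log2 scale, and 3 genes did not pass. Cenpp, of the CENP-O, CENP-P, CENP-Q and CENP-U subcomplex, had log2 signals of 6.36, 5.95 and 6.25 on modified PEEK, against 5.00, 5.29 and 4.70 on pristine PEEK (limma, change 1.19 ± 0.17 SE, 2.28-fold, adjusted p = 0.00337). Cenpm, a small GTPase-like protein of the CENP-H, CENP-I and CENP-K subcomplex, had 8.50, 8.44 and 8.21 on modified PEEK, against 7.23, 7.35 and 7.12 on pristine PEEK (limma, 2.22-fold, adjusted p = 0.000632). Cenpi, of the same subcomplex, had 7.66, 7.83 and 7.81 on modified PEEK, against 6.69, 6.74 and 6.77 on pristine PEEK (limma, 2.05-fold, adjusted p = 0.000455). For these 3 genes no array of one surface reached the other.

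The other 8 genes of the network that passed had smaller changes. Cenpn, which reads the CENP-A nucleosome, rose by 0.94, and its partner Cenpl by 0.87. Cenph rose by 0.83 and Cenpk by 0.71. Cenpu, a docking factor for Polo-like kinase, rose by 0.63, and Cenps, a histone-fold protein shared with the Fanconi anaemia pathway, by 0.60. Cenpc1, which links CENP-A nucleosomes to the outer kinetochore, rose by 0.58, and Cenpo by 0.46.

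Of the genes of this network, 4 lost their call in fits with 1 array left out. Cenpo lost it without any array other than modified PEEK replicate 2 (adjusted p up to 0.116), with changes of 0.38 to 0.54 over the 6 fits. Cenpc1 lost it without modified PEEK replicate 3 or pristine PEEK replicate 1 or 3 (up to 0.0780, changes of 0.49 to 0.67). Cenph lost it without modified PEEK replicate 1 or 3 or pristine PEEK replicate 2 or 3 (up to 0.0736, changes of 0.67 to 0.98). Cenpl lost it without modified PEEK replicate 1 or pristine PEEK replicate 1 or 2 (up to 0.0686, changes of 0.69 to 1.04).

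The 3 genes of the network that did not pass included both members of the CENP-T and CENP-W histone-fold pair. Cenpt had 6.64, 6.64 and 6.69 on modified PEEK, inside the range of 6.78, 6.66 and 6.45 on pristine PEEK. Its change was 0.02 with a 95% interval from -0.23 to 0.27 (limma, adjusted p = 0.934). That interval lies below the median change of the network, 0.67, which was taken with Cenpt included. Cenpt was not alone in this, since the interval of Cenpq also ended just below that median. Those of Cenpi, Cenpm, Cenpn and Cenpp lay above it. Cenpw had 5.52, 5.52 and 5.81 on modified PEEK, against 5.28, 4.91 and 5.30 on pristine PEEK, without overlap (limma, change 0.46, 95% interval 0.13 to 0.78, adjusted p = 0.0855). It passed in 2 of the 16 alternatives, with adjusted p of 0.0268 to 0.240 over all 16. These were the scaling to the poly-A spikes (0.0321) and the lowest 50% of genes left out (0.0268). Cenpq had 6.44, 6.08 and 6.44 on modified PEEK, against 5.88, 6.12 and 5.87 on pristine PEEK, where replicate 2 reached above the lowest modified array (limma, change 0.37, 95% interval 0.06 to 0.67, adjusted p = 0.136). Cenpq passed in 3 of the 16 alternatives, among them that without modified PEEK replicate 2 (adjusted p = 0.0481, with 0.0276 to 0.336 over all 16).

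In the microtubule-binding core 7 of 10 genes rose, with a median change of 0.84 on the log2 scale. Knl1, the large scaffold that binds the checkpoint proteins, had the largest rise of all 42 genes, with log2 signals of 7.17, 7.07 and 7.30 on modified PEEK, against 5.73, 5.56 and 5.78 on pristine PEEK. The change was 1.49 ± 0.11 (SE), or 2.81-fold (limma, adjusted p = 0.000218). Nuf2, a subunit of the NDC80 complex that grips microtubules, had 9.27, 9.16 and 9.40 on modified PEEK, against 7.76, 7.93 and 7.80 on pristine PEEK (limma, 2.73-fold, adjusted p = 0.000218). Its partner Ndc80 had 7.96, 8.14 and 8.26 on modified PEEK, against 6.75, 6.84 and 7.06 on pristine PEEK (limma, 2.36-fold, adjusted p = 0.000615). The surfaces were far apart for all 3 genes relative to the spread within them. Spc25 (1.18) and Spc24 (0.79), which anchor the NDC80 complex to the inner kinetochore, also rose.

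Of the MIS12 complex, 2 of 4 genes passed. Pmf1 rose by 0.89 and Nsl1 by 0.79 on the log2 scale, while Dsn1 and Mis12 did not pass. Dsn1 had 6.56, 6.16 and 6.62 on modified PEEK, against 5.90, 6.09 and 5.85 on pristine PEEK (limma, change 0.50, 95% interval 0.17 to 0.82, adjusted p = 0.0651). Dsn1 passed in 8 of the 16 alternatives, with adjusted p of 0.011 to 0.202 over all 16. The 8 included the fit without modified PEEK replicate 2 (0.0166) and that in which the variance followed signal intensity (intensity trend, 0.0130). Mis12 had 7.76, 7.62 and 7.78 on modified PEEK, against 7.37, 7.54 and 7.45 on pristine PEEK (limma, change 0.27, 95% interval 0.04 to 0.49, adjusted p = 0.141). Mis12 passed in 3 of the 16 alternatives, among them the intensity trend (adjusted p = 0.0474, with 0.0377 to 0.342 over all 16).

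Zwint, the KNL1 partner that helps bring the corona to the kinetochore, had the only negative change of the core. Its log2 signals were 7.56, 7.28 and 7.36 on modified PEEK, against 7.58, 7.91 and 7.81 on pristine PEEK. Every modified PEEK array lay below every pristine one, the nearest by a narrow margin. The change was -0.37 with a 95% interval from -0.65 to -0.09, and it did not pass (limma, adjusted p = 0.111). With the intensity trend it passed as lower (adjusted p = 0.0129), and scaled to the poly-A spikes it was -0.12 (adjusted p = 0.578, the highest of the 16 alternatives).

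**Figure D3:**
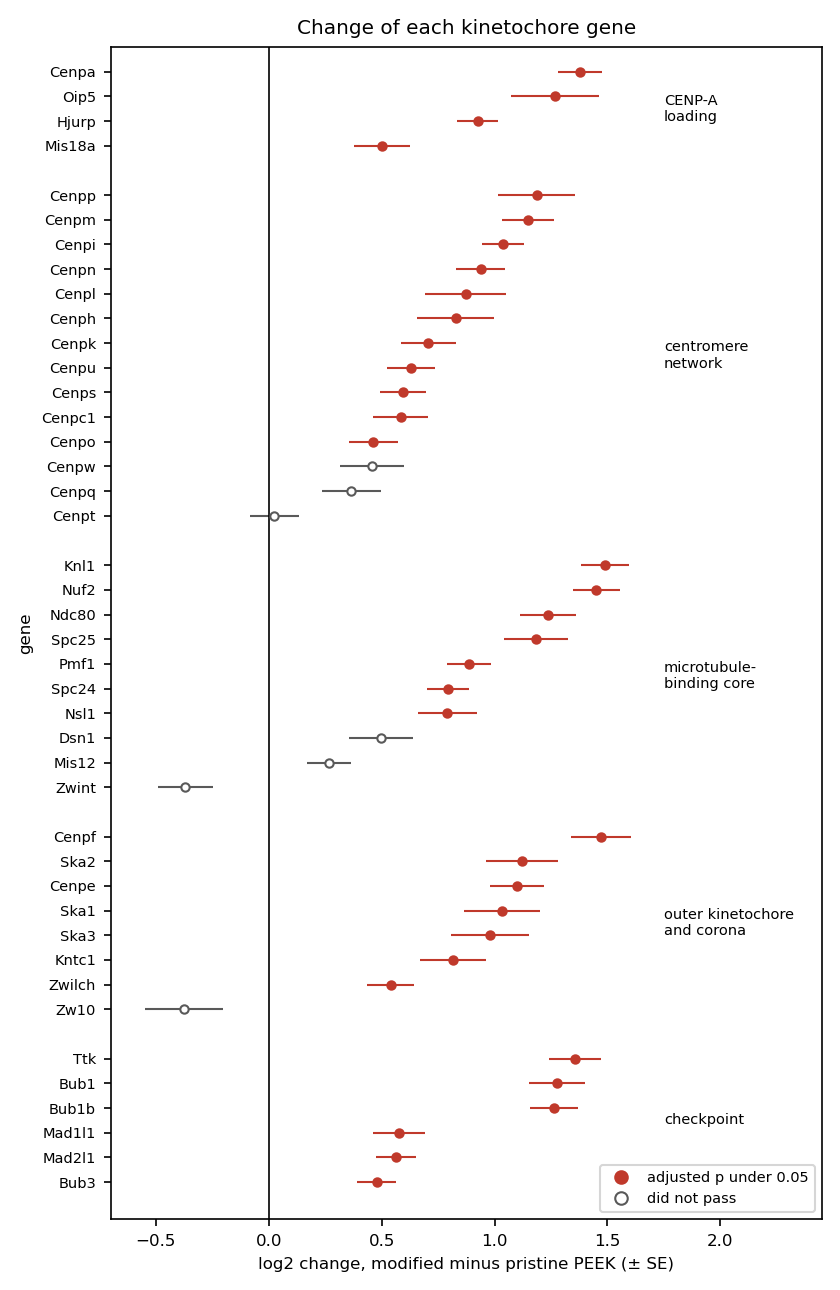
Log2 change of each of the 42 genes, modified minus pristine PEEK, with its standard error from limma, grouped by role. Filled points passed at an adjusted p under 0.05 and open points did not. The largest rise is that of Knl1 at 1.49, and Zwint and Zw10 are the genes left of 0.

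Outer kinetochore and corona genes rose in 7 of 8 cases, with a median change of 1.01 on the log2 scale. Cenpf, a large coiled-coil protein of the corona, had log2 signals of 7.27, 7.24 and 7.43 on modified PEEK, against 5.58, 6.01 and 5.94 on pristine PEEK (limma, change 1.47 ± 0.13 SE, adjusted p = 0.000425). Ska2, of the SKA complex that helps NDC80 follow shrinking microtubules, had 7.47, 7.52 and 7.78 on modified PEEK, against 6.14, 6.66 and 6.62 on pristine PEEK (limma, 2.17-fold, adjusted p = 0.00331). Cenpe, the kinesin that carries chromosomes to the spindle equator, had 8.23, 8.31 and 8.61 on modified PEEK, against 7.31, 7.34 and 7.19 on pristine PEEK (limma, 2.14-fold, adjusted p = 0.00104). None of the 3 overlapped between surfaces.

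The other SKA genes rose as well. Ska3 changed by 0.98 on the log2 scale. Ska1 averaged 4.67 ± 0.35 on modified PEEK and 3.64 ± 0.10 on pristine PEEK (SD, n = 3 each), and the pristine mean was below the background of 3.72. With the background in place of that pristine mean, the modified PEEK mean of Ska1 was 1.93-fold higher. This ratio is not a lower limit of the rise. The change was 1.03 on the log2 scale, with an interval from 0.64 to 1.42 in the same fit (limma, adjusted p = 0.0065).

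The RZZ complex, made of the products of Kntc1 (ROD), Zwilch and Zw10, recruits dynein and the Mad proteins to unattached kinetochores. Kntc1 rose by 0.82 ± 0.14 (SE) and Zwilch by 0.54 ± 0.10 (SE) on the log2 scale. Zwilch lost its call without modified PEEK replicate 3 or pristine PEEK replicate 1 or 2 (adjusted p up to 0.0606, changes of 0.49 to 0.62). Zw10, which also works in membrane traffic outside mitosis, had 7.57, 6.85 and 7.36 on modified PEEK, against 7.62, 7.61 and 7.69 on pristine PEEK. All modified PEEK arrays were below the pristine ones, but replicate 1 only slightly. The change was -0.38 with a 95% interval from -0.77 to 0.02 (limma, adjusted p = 0.25), and it was -0.17 without modified PEEK replicate 2. With the intensity trend Zw10 passed as lower (adjusted p = 0.0488), and scaled to the poly-A spikes its change was -0.13 (adjusted p = 0.602, the highest of the 16 alternatives).

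All 6 checkpoint genes rose, with a median change of 0.92 on the log2 scale. Ttk, the Mps1 kinase that starts checkpoint signalling, had log2 signals of 8.08, 7.82 and 8.04 on modified PEEK, against 6.47, 6.74 and 6.66 on pristine PEEK (limma, change 1.36 ± 0.12 SE, 2.56-fold, adjusted p = 0.000369). Bub1, the kinase that docks on KNL1, had 8.83, 8.69 and 9.0 on modified PEEK, against 7.38, 7.68 and 7.62 on pristine PEEK (limma, 2.42-fold, adjusted p = 0.000565). Bub1b, encoding BubR1 of the inhibitory complex, had 8.73, 8.68 and 8.79 on modified PEEK, against 7.37, 7.65 and 7.39 on pristine PEEK (limma, 2.40-fold, adjusted p = 0.00035). For each of these 3 genes the lowest modified PEEK array stood at least 1 log2 unit above the highest pristine one.

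The other 3 checkpoint genes rose 1.39-fold to 1.49-fold. Mad1l1 changed by 0.58 ± 0.11 (SE), Mad2l1, whose product is the core of the inhibitory complex, by 0.56 ± 0.09 (SE), and Bub3, which carries Bub1 and BubR1 to the kinetochore, by 0.48 ± 0.09 (SE). Mad1l1 lost its call without modified PEEK replicate 3 or pristine PEEK replicate 2 or 3 (adjusted p up to 0.0712, changes of 0.50 to 0.68). Bub3 lost it without pristine PEEK replicate 3 (adjusted p = 0.0613, change 0.45).

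**Figure D4:**
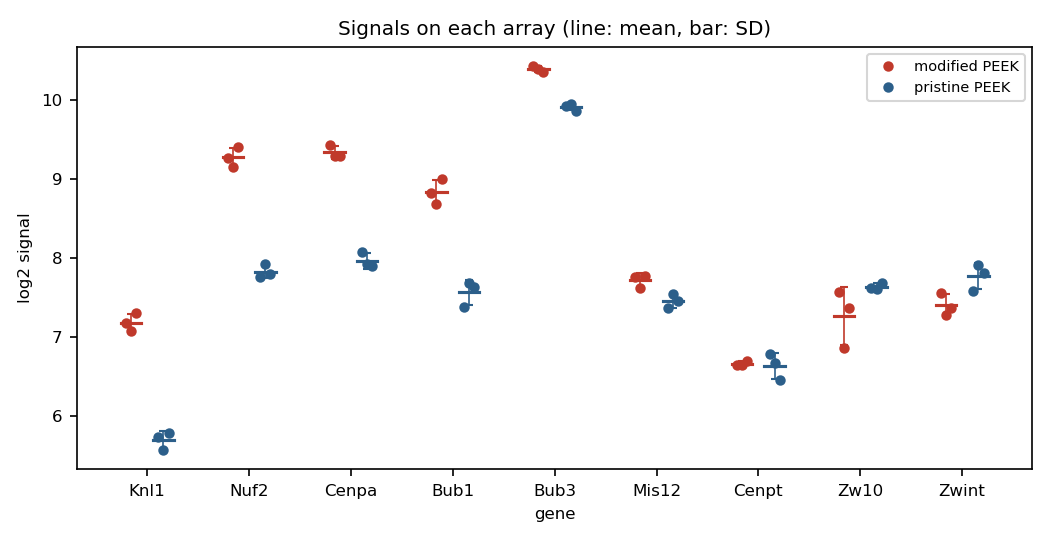
Log2 signal on each array (points), with the mean (line) and SD (bar, n = 3), for 9 genes, modified PEEK left of pristine PEEK. Knl1, Nuf2, Cenpa and Bub1 stand more than 1 log2 unit higher on modified PEEK on average, Bub3 and Mis12 by less, Cenpt overlaps, and Zw10 and Zwint are lower.

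Changes were also compared between genes that work together. For 5 pairs, chosen after their values were seen, the within-array difference between both genes was compared between surfaces. Knl1 changed by 1.86 more than Zwint on the log2 scale, Kntc1 by 1.19 more than Zw10, Cenpi by 1.01 more than Cenpt, Bub1 by 0.80 more than Bub3 and Nuf2 by 0.66 more than Spc24. In each of the 5 pairs the exact permutation test gave a two-sided p = 0.1 (0.1 also after adjustment over the 5), the smallest that 3 against 3 arrays allow. The design therefore cannot take such a difference below 0.05 by this test.

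A list of 24 further kinetochore and checkpoint genes, of which 21 were measured, was set beside these, also with earlier results known. It had 11 genes higher and 1 lower by limma, with a median change of 0.50 on the log2 scale, against 5.24% of all genes higher and 5.15% lower. Sgo1, a protector of centromeric cohesion, had log2 signals of 6.98, 6.98 and 7.47 on modified PEEK, against 5.78, 6.16 and 6.01 on pristine PEEK (limma, 2.23-fold, adjusted p = 0.00297). Cdc20, the activator of the anaphase-promoting complex that the checkpoint blocks, had 8.11, 7.84 and 8.11 on modified PEEK, against 6.88, 6.78 and 6.92 on pristine PEEK (limma, 2.23-fold, adjusted p = 0.000517). Knstrn rose by 1.12 and Haspin, the histone H3 kinase that guides the chromosomal passenger complex to centromeres, by 1.10.

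Among the genes that rose by less in this list were Cenpx, the histone-fold partner of Cenps (0.70), and Trip13, an ATPase that dismantles the inhibitory complex (0.91). Sgo2a rose by 1.07, Spag5, a spindle protein that works with Knstrn, by 0.95, Rangap1 by 0.65 and Spdl1, a dynein adaptor of the corona, by 0.50. Rangap1 lost its call without modified PEEK replicate 1 (adjusted p = 0.0582) or 3 (0.0711) or pristine PEEK replicate 1 (0.0685) or 3 (0.0611), and Spdl1 without pristine PEEK replicate 3 (0.0583). The 9 genes that did not pass changed by -0.12 to 0.38. Mad2l1bp, the adaptor of Trip13, had a change of -0.03 and did not pass (95% interval -0.24 to 0.19; limma, adjusted p = 0.911). The closely related dynein regulators Nde1 and Ndel1 went opposite ways. Nde1 had 8.05, 7.79 and 7.90 on modified PEEK, against 6.95, 7.12 and 6.76 on pristine PEEK (limma, change 0.97 ± 0.12 SE, adjusted p = 0.00196). Ndel1 had 8.90, 8.63 and 8.97 on modified PEEK, against 9.37, 9.37 and 9.42 on pristine PEEK (limma, change -0.55 ± 0.11 SE, adjusted p = 0.0169). Both kept their surfaces apart, and each passed in its own direction. The call for Ndel1 did not hold when a pristine PEEK array was left out (adjusted p = 0.0593 without replicate 1, 0.0584 without 2 and 0.0720 without 3), nor when scaled to the poly-A spikes (-0.31, adjusted p = 0.213, which no other alternative exceeded).

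**Figure D5:**
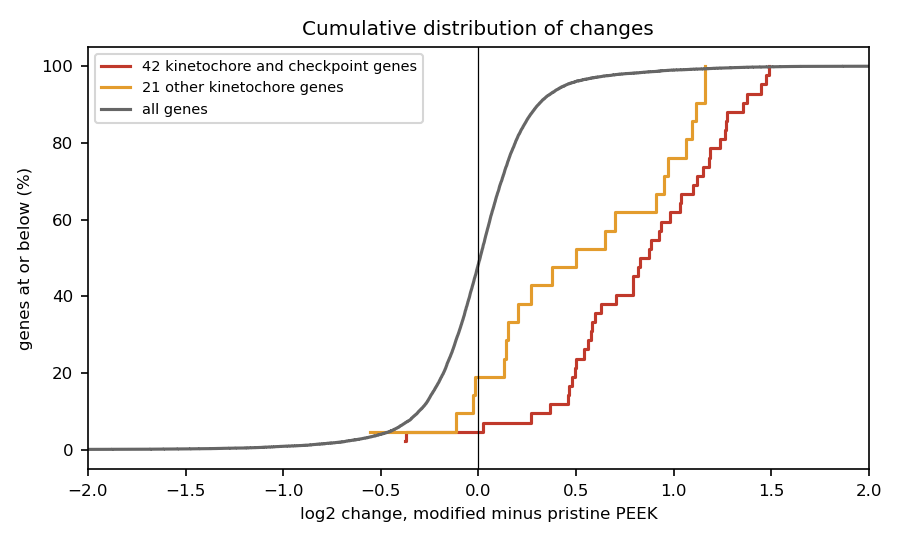
Cumulative share of genes (vertical axis, in percent) by log2 change, modified minus pristine PEEK (horizontal axis), for the 42 genes, the 21 further kinetochore genes and all 19505 genes. The curve of the 42 genes lies to the right, with a median of 0.85, that of the 21 genes has a median of 0.50 and that of all genes 0.0088, and changes beyond 2 in either direction lie outside the axis.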

How the data were processed

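Total RNA of RAW264.7 cells was hybridised to 6 Affymetrix arrays. The deposited values are log2 signals per probe set made by the authors. The submitters' processing notes name RMA, with no version, and values of 0.941 to 12.4 fit a log2 scale. No source used here gives the genome build of the array annotation.

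Of 29129 features, 19572 probe sets had 1 gene symbol, and the brightest probe set was kept for each of 19505 genes. The comparison used limma 3.58.1 (R 4.3.3; two-sided, no covariates, no intensity trend, 4 residual and 4.09 prior degrees of freedom), with Benjamini-Hochberg adjustment over all genes and 95% intervals from the same fit. The number of arrays limits the precision. Columns of per-sample values left unused numbered 0.

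The 250 bases before gene starts came from RefSeq (GRCm38.p6). Members and lists were chosen with earlier results of these data known. The array values given are those of the 3 largest passing changes per role and of up to 3 members that did not pass. Further kinetochore genes were named for the 4 largest passing changes in each direction, and the others named were added after their values were seen. Alternatives were each array left out, the replicate number as a block, weights per array, an intensity trend, the same with robust fitting, averaged probe sets per gene, filters on the lowest 25% or 50% of genes, and other scalings (quantile again, array medians, the poly-A spikes). The fit was tested on simulated data.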

Additional observations from a re-analysis of the deposited data

How the results depend on the processing

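Between 29 and 38 of the 42 genes were higher across the 16 alternatives, against 3.05% to 15.1% of all genes. The value of 15.1% and a count of 38 came with the lowest 50% of genes left out, where 41 of the 42 were tested. The median change of the 42 stayed within 0.79 to 0.94 when 1 array was left out. Scaled to the poly-A spikes, the median change was 1.10 and that of all genes 0.26. Their difference of 0.84 could not move, since this scaling shifts the change of every gene by the same amount. The number of the 42 genes called lower was 0 in the reported fit. It was 1 (Zwint) with the lowest 50% of genes left out, 2 (Zwint and Zw10) with an intensity trend and 1 (Zwint) with the trend and robust fitting. Among the further kinetochore genes, the number lower was 0 when scaled to the spikes and 0 to 1 when 1 array was left out, and the number higher was 9 to 11 when 1 array was left out. Cenpt, never called, had a change of -0.065 to 0.099 when 1 array was left out, the negative value being that without pristine PEEK replicate 3. The cause was not tested.

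Modified and pristine PEEK samples share replicate numbers only by label. Deviations of same-numbered arrays from their surface means correlated at -0.17, -0.16 and 0.07, and those of differently numbered arrays at -0.07 to 0.22. With 3 arrays per surface these values cannot tell whether the numbers pair the samples. With the replicate number as a block, 31 of the 42 genes were higher (3.31% of all genes) and 0 lower (3.19% of all genes), and 10 of the further genes were higher. Ska1 was the 1 gene not above background on all arrays, and it left the test when the lowest 50% of genes were removed.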
